A study of Mus musculus with 12 samples.

Results

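The intercalated disc joins cardiac muscle cells end to end, and 10 of its genes are described here: the gap junction gene Gja1, the desmosome genes Dsp, Pkp2, Jup, Dsg2 and Dsc2, the adherens junction genes Cdh2, Ctnna3 and Vcl, and the scaffold gene Tjp1. They were chosen by name from knowledge of the disc, but with earlier results of these data known. They were 10 of the 12866 genes that could be measured in all libraries. For each gene the deposited FPKM values of its transcripts listed for all libraries were added up. FPKM are fragments scaled by transcript length in kilobases and by the fragments sequenced. Gap junctions are channels that pass current from cell to cell. Desmosomes tie the desmin filaments of neighbouring cells together, and adherens junctions anchor the actin of the outermost sarcomeres. In cardiac muscle these parts are intermixed at the disc, and inherited defects of desmosome genes are a known cause of arrhythmogenic cardiomyopathy.

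Whole hearts of wild-type C57BL/6 mice were sequenced after depletion of ribosomal RNA, as 12 libraries that form 3 groups of 4 mice. The Control group was given saline. The LPS group was given lipopolysaccharide, a bacterial outer membrane component that triggers innate immunity, at 10 mg/kg. The LPS+XJDHT group was given that dose together with Xijiao Dihuang decoction, a herbal formula, at 50 mg/kg per day. All treatments ran over 3 days. No sex or age is used here, and the LPS+XJDHT group has no counterpart that received the decoction without LPS.

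Depth was even, between 73.9 and 77.8 M fragments per library (M, mega), as recovered from the spacing of the values. The hearts carried the defining genes of cardiac muscle: the summed level of 11 listed cardiomyocyte markers was 21039 to 23549 FPKM in Control, 11030 to 13176 FPKM in LPS and 9370 to 13567 FPKM in LPS+XJDHT. Of the 10 that were tested, 7 fell and 0 rose in LPS against Control, where 12% of all tested genes fell and 26.6% rose. One library stood apart by its Y-linked genes, 4 of which summed to 0.205 FPKM in LPS+XJDHT 2 and to 20.4 to 61.9 FPKM in the other 11. The main results are therefore also given without it. In what follows libraries are named by group and number, a level is in FPKM with its SD over 4 libraries, and a log2 fold change is a difference on the log2(FPKM + 1) scale from limma with its SE. A gene rose or fell where its p-value, adjusted by the Benjamini-Hochberg method over all 11509 genes tested, was below 0.05.

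In Control hearts the disc genes spanned a wide range of levels per unit of transcript length. Dsp was highest at 99.999 ± 15.7 FPKM, and no other member reached its range. Cdh2 (47.5 ± 8.22) and Jup (42.8 ± 6.03) came next, with overlapping libraries. Pkp2 followed at 31.1 ± 0.766 FPKM, below every Jup library. Vcl stood at 20.6 ± 2.01 FPKM. Dsg2 (11.5 ± 5.79) and Tjp1 (10.1 ± 2.22) overlapped each other, Dsc2 lay below both means at 6.14 ± 1.63 FPKM and below every Tjp1 library, and Ctnna3 was lowest at 1.08 ± 0.290 FPKM. Gja1 has no place in this order, because its libraries ran from 0.0650 to 73.4 FPKM.

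Of the 10 members, Cdh2 and Pkp2 rose in LPS against Control and 0 fell, where 26.6% of all tested genes rose and 12% fell. The median log2 fold change was 0.32 over the members and 0.16 over all tested genes. In LPS+XJDHT against Control the same 2 members rose and 0 fell, against 28.5% of all genes that rose and 10.7% that fell. That comparison uses the same Control libraries, so its agreement with the first is not separate evidence. Between LPS+XJDHT and LPS 0 of 10 members passed the test, and 0 had an unadjusted p below 0.05. Over all genes 0.113% passed there, 13 genes that all fell. Between those groups the median was 0.01 over the members and 0.03 over all genes. In whole hearts fewer cells of a type and less RNA per cell cannot be told apart. The summed level of cardiomyocyte markers was lower in every library that received LPS than in Control. Of the 10 tested singly, 7 fell in each comparison with Control. The part of either in the values below was not tested.

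**Figure D1:**
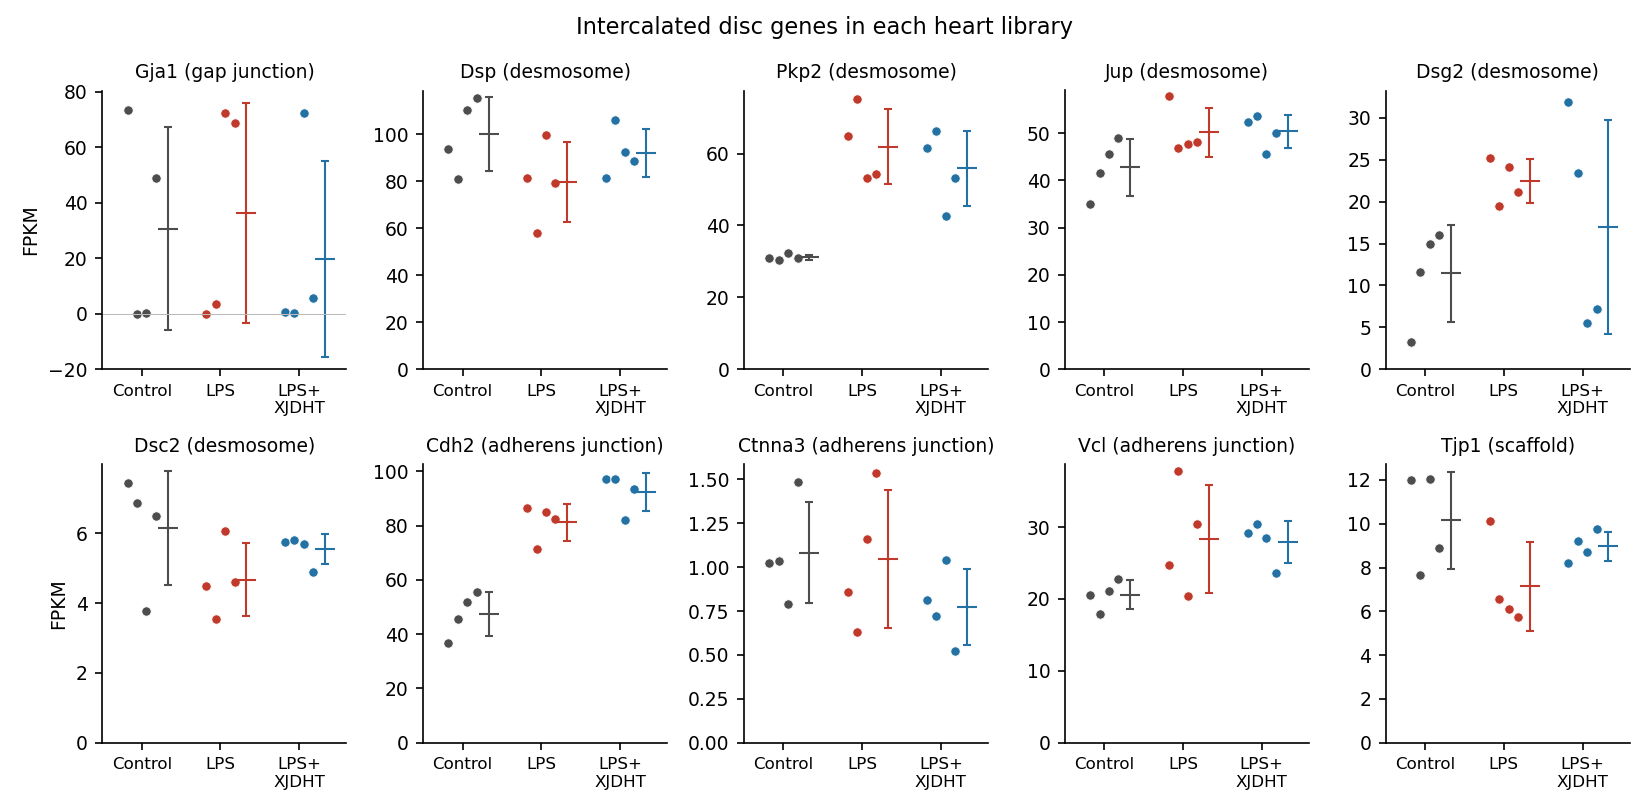
FPKM of each disc gene in the 12 libraries; each point is 1 heart, and the bar beside each group is the mean with its SD over 4 libraries. Pkp2 and Cdh2 lie higher in every LPS and LPS+XJDHT library than in any Control library, while Gja1 has libraries near 0 and a library at 72.4 FPKM inside each LPS group.

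**Figure D2:**
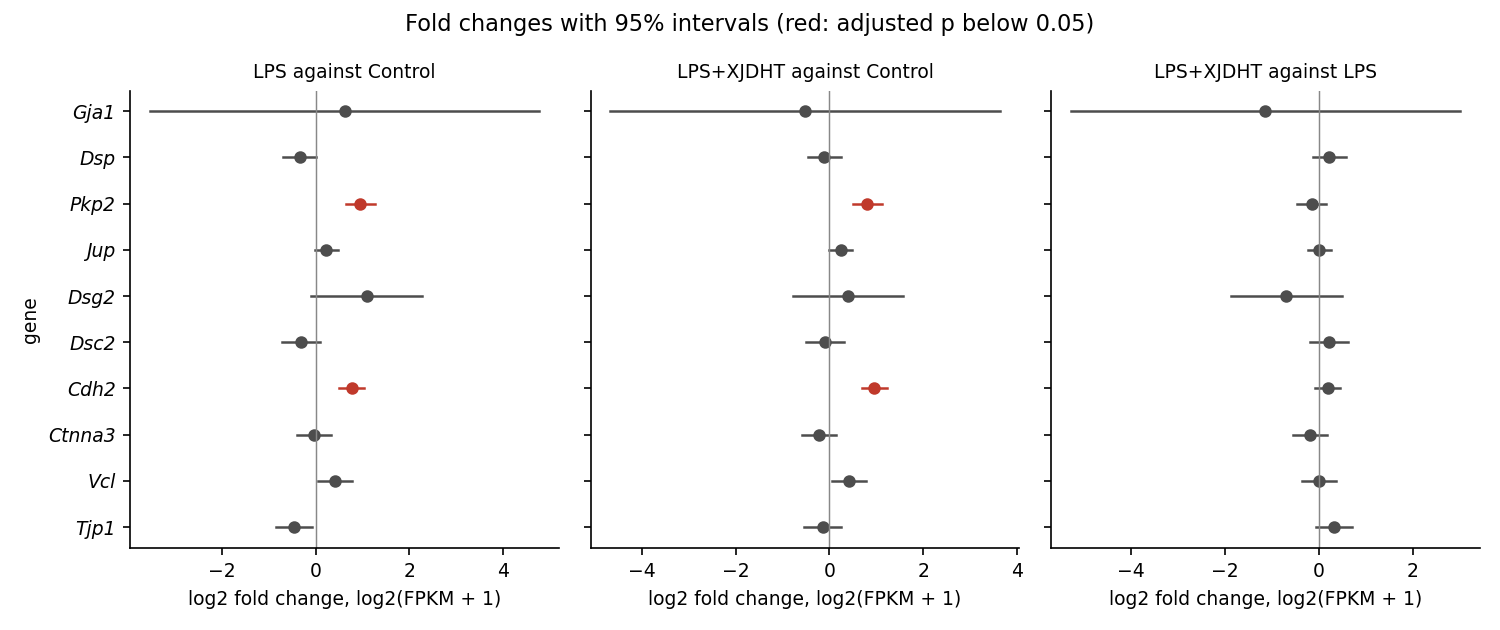
Log2 fold change on the log2(FPKM + 1) scale with its 95% interval for the 10 genes in each of the 3 comparisons; red marks an adjusted p below 0.05. Only Pkp2 and Cdh2 are red, in both comparisons with Control, and the interval of Gja1 covers changes from -3.54 to 4.77 in LPS against Control.

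The adherens junction is described first. Cdh2 (chr18:16588877-16809246, minus strand) encodes N-cadherin, the adhesive receptor of the cardiac adherens junction. Its level was 36.8, 45.7, 51.9 and 55.6 FPKM in Control 1 to 4, 86.5, 71.4, 85.0 and 82.3 FPKM in the LPS libraries, and 97.0, 97.2, 82.1 and 93.6 FPKM in the LPS+XJDHT libraries. Every heart that received LPS lay above every Control heart, and the LPS and LPS+XJDHT ranges overlapped. Cdh2 was 1.71-fold higher in LPS (log2 fold change 0.77 ± 0.12, adjusted p = 0.000489) and 1.95-fold higher in LPS+XJDHT (0.96 ± 0.12, adjusted p = 0.000124). Without LPS+XJDHT 2 the second value was 0.94. Between the LPS groups the difference was 0.18, with a 95% interval from -0.08 to 0.45.

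Vcl (chr14:20929398-21033676, plus strand) encodes vinculin, which links the cadherin complex to actin. It was measured at 20.5, 17.96, 21.1 and 22.8 FPKM in Control, at 24.8, 37.8, 20.4 and 30.4 FPKM in LPS, and at 29.2, 30.4, 28.5 and 23.6 FPKM in LPS+XJDHT. In LPS 3 it lay within the Control range, while all 4 LPS+XJDHT libraries lay above Control. With Cdh2 and Pkp2, Vcl made 3 of 10 members without overlap between LPS+XJDHT and Control, all higher in LPS+XJDHT, where 30.2% of all genes were higher without overlap and 11.9% lower. The log2 fold changes of 0.41 in LPS (95% interval 0.05 to 0.77, adjusted p = 0.0682) and 0.42 in LPS+XJDHT (0.06 to 0.78, adjusted p = 0.0622) did not pass. LPS 3 decided the first: without it the value was 0.55 with an adjusted p of 0.0121. The second also passed without LPS 2 (adjusted p = 0.0247) or LPS 3 (0.0295) and in a fit of only the groups compared (0.0132), which leave its fold change as it is and change only the estimate of spread. It passed with sample quality weights too (0.39, adjusted p = 0.0309). Without LPS+XJDHT 2 it was 0.38 (adjusted p = 0.130). Over the alternatives it went down to 0.18, and its adjusted p went up to 0.438. With median-ratio scaling the fold change in LPS was 0.22 (adjusted p = 0.338).

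Ctnna3 (chr10:63430098-65003667, plus strand) encodes alpha-T-catenin, a catenin of heart and testis that binds plakophilin-2 as well as the cadherin complex. Its transcript listed for all libraries was at 1.03, 1.04, 0.789 and 1.48 FPKM in Control, 0.859, 0.630, 1.16 and 1.54 FPKM in LPS, and 0.812, 0.722, 1.04 and 0.521 FPKM in LPS+XJDHT. These groups overlapped, and the log2 fold change in LPS was -0.04 (95% interval -0.40 to 0.33). A second Ctnna3 transcript is listed only for the Control and LPS libraries. It was at 1.13, 1.06, 0.876 and 1.63 FPKM in Control and 0.317, 0.173, 0.701 and 0.663 FPKM in LPS, with every LPS library below every Control library. With it added, the fold change of the gene in LPS was -0.39 (adjusted p = 0.186).

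Among the desmosome genes, Pkp2 (chr16:16213318-16272712, plus strand) changed most clearly. It encodes plakophilin-2, an armadillo-repeat protein of the desmosomal plaque that also organizes connexin43 at the disc. Its level was 30.9, 30.4, 32.2 and 31.0 FPKM in Control, 64.9, 75.3, 53.2 and 54.4 FPKM in LPS, and 61.5, 66.3, 42.7 and 53.1 FPKM in LPS+XJDHT. The 4 Control libraries were within 2 FPKM of each other and below all others. Pkp2 was 1.99-fold higher in LPS (log2 fold change 0.96 ± 0.14, adjusted p = 0.000314) and 1.80-fold higher in LPS+XJDHT (0.81 ± 0.14, adjusted p = 0.00100). Without LPS+XJDHT 2 the second value was 0.72. Between the LPS groups it differed by -0.15, with a 95% interval from -0.46 to 0.16.

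Dsg2 (chr18:20558074-20604521, plus strand) encodes desmoglein-2, the main desmosomal cadherin of heart muscle. It was at 3.26, 11.5, 15.0 and 16.0 FPKM in Control, 25.2, 19.4, 24.1 and 21.1 FPKM in LPS, and 31.8, 23.5, 5.55 and 7.24 FPKM in LPS+XJDHT. All LPS libraries lay above Control, whereas the LPS+XJDHT libraries split into a pair above the LPS median and a pair within the Control range. Its residual SD of 0.858 on the log2 scale ranked 429 among 11509 genes, with a median over genes of 0.254. The fold change of 1.09 ± 0.54 in LPS did not pass (95% interval -0.09 to 2.27, adjusted p = 0.133). The difference between the LPS groups was -0.69, with an interval from -1.88 to 0.49, and -0.95 without LPS+XJDHT 2. With Cdh2 and Pkp2, Dsg2 made 3 of 10 members without overlap between LPS and Control, all higher in LPS, where 25.3% of all genes were higher without overlap and 12.1% lower.

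Dsc2 (chr18:20030633-20059554, minus strand) encodes desmocollin-2, the partner cadherin of desmoglein-2. It was at 7.46, 6.86, 3.77 and 6.49 FPKM in Control, 4.49, 3.54, 6.07 and 4.60 FPKM in LPS, and 5.77, 5.82, 5.71 and 4.90 FPKM in LPS+XJDHT. The groups overlapped, since Control 3 lay below 3 of the LPS hearts. The fold change in LPS was -0.32 (95% interval -0.72 to 0.09, adjusted p = 0.201). Without Control 3 it was -0.50 with an adjusted p of 0.0247. These values leave out a further Dsc2 transcript that is listed only for the Control and LPS libraries. That transcript was at 0.147, 0.521, 1.14 and 1.44 FPKM in Control and 0.071, 0.161, 0.181 and 0.211 FPKM in LPS. With it added, the fold change of the gene in LPS was -0.45 (adjusted p = 0.0870).

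Jup (chr11:100368958-100397763, minus strand) encodes plakoglobin, which sits in both desmosomes and adherens junctions. It was at 34.9, 41.5, 45.6 and 48.9 FPKM in Control, 57.9, 46.8, 47.8 and 48.1 FPKM in LPS, and 52.3, 53.7, 45.6 and 50.0 FPKM in LPS+XJDHT. A total of 3 LPS libraries and 1 LPS+XJDHT library lay within the Control range. The fold change was 0.23 in LPS (95% interval -0.01 to 0.47, adjusted p = 0.125) and 0.24 in LPS+XJDHT (-0.0049 to 0.48, adjusted p = 0.111).

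Dsp (chr13:38151294-38198577, plus strand) encodes desmoplakin, which binds the plaque proteins at one end and desmin at the other. Its summed level was 93.7, 80.9, 110.1 and 115.3 FPKM in Control, 81.5, 58.1, 99.8 and 79.1 FPKM in LPS, and 81.3, 105.9, 92.3 and 88.5 FPKM in LPS+XJDHT. The 3 groups overlapped, with LPS 2 as the lowest heart. The fold change in LPS was -0.34 (95% interval -0.69 to 0.02, adjusted p = 0.120). It passed without LPS 3 (-0.45, adjusted p = 0.0389) and with median-ratio scaling, in which a library's values are divided by their median ratio to the geometric mean over libraries (-0.53, adjusted p = 0.0152). In LPS+XJDHT against LPS it was 0.22, with an interval from -0.13 to 0.58.

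The sum hides different courses of the 2 main Dsp transcripts, whose coding parts differ by 1797 bases of exon 23. The long Dsp transcript has 9592 bases, of which 8649 are coding, and the short one has 7761 bases, of which 6852 are coding. They are known as the messages of desmoplakin I, with a long coiled-coil rod, and of the shorter desmoplakin II. The stretch found only in the long transcript is chr13:38191859-38193655 on the plus strand in GRCm38, which is mm10. It lies within the coding sequence and makes up 599 codons without a shift of frame. The short transcript leaves exon 23 early, at a splice donor inside the exon, and both join the same exon 24. The junctions are shown because they are the bases that tell the transcripts apart, each with 30 bases on either side, from GENCODE M21 transcripts, with capitals for the stretch found only in the long transcript.
Long Dsp, exon 23 across the donor used by the short transcript: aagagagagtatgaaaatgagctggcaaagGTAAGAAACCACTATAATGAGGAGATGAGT
Long Dsp, end of exon 23 and start of exon 24: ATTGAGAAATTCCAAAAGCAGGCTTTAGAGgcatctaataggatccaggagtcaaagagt
Short Dsp, end of exon 23 and start of exon 24: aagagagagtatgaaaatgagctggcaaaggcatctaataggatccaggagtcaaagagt
In the first sequence the capitals open with GTAAG, the letters of a splice donor, which are read as exon in the long transcript and as the start of an intron in the short one.

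The long Dsp transcript was at 71.98, 62.6, 86.2 and 88.9 FPKM in Control, 51.2, 31.8, 67.6 and 48.1 FPKM in LPS, and 51.4, 58.5, 60.8 and 60.7 FPKM in LPS+XJDHT. All LPS+XJDHT libraries and all but LPS 3 lay below Control. The short Dsp transcript was at 20.8, 17.8, 23.4 and 25.6 FPKM in Control, 30.1, 25.9, 31.7 and 30.6 FPKM in LPS, and 29.4, 46.9, 31.0 and 26.9 FPKM in LPS+XJDHT. It was higher than Control in every heart that received LPS. So the long form tended to lie below its Control level in the same hearts in which the short form lay above it. The portion of all transcripts that part the groups without overlap was not counted, for these or for other transcripts named here.

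Adjusted over all 18644 transcripts tested, the long Dsp transcript fell in LPS (log2 fold change -0.66 ± 0.20, adjusted p = 0.0287), where 8.26% of all transcripts fell. That call was lost without Control 1 (adjusted p = 0.0502), Control 3 (0.0752), Control 4 (0.0755) or LPS 4 (0.0560), in a fit of only the groups compared (0.0678), and in a fit of every transcript listed for Control and LPS (0.0627). In LPS+XJDHT it was -0.40 with an adjusted p of 0.158, and passed with median-ratio scaling (-0.65, adjusted p = 0.0261) and in a fit of only the groups compared (adjusted p = 0.0446). The short Dsp transcript rose in LPS+XJDHT (0.57 ± 0.17, adjusted p = 0.0288), where 18.6% of all transcripts rose, but not without Control 1 (adjusted p = 0.0672) or Control 2 (0.0780), nor in a fit of only the groups compared (0.0554), nor with median-ratio scaling (0.34, adjusted p = 0.155). Without LPS+XJDHT 2, its highest library, it was 0.41 (adjusted p = 0.0492). In LPS the short transcript had a fold change of 0.43 with an adjusted p of 0.0893. It passed there at the same fold change without LPS+XJDHT 2 (adjusted p = 0.0278) and in a fit of every transcript listed for Control and LPS (0.0466).

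The share of the long transcript in the summed FPKM of Dsp is a ratio within a library and does not depend on how libraries are scaled. It was 76.8%, 77.3%, 78.3% and 77.1% in Control, 62.9%, 54.7%, 67.7% and 60.8% in LPS, and 63.2%, 55.3%, 65.8% and 68.7% in LPS+XJDHT. The Control hearts were within 2 points of each other, and all 8 hearts that received LPS lay below them. For how many other genes the share of the main transcript parts the groups in this way was not counted. The mean share was 77.4% ± 0.642 in Control, 61.5% ± 5.39 in LPS and 63.2% ± 5.77 in LPS+XJDHT (SD, n = 4). Both differences from Control, -15.9 and -14.1 points, had an exact two-sided permutation p of 0.0286, the smallest that 4 against 4 libraries can give. The adjusted p was 0.257 over 18 tests of 6 members. From that smallest p, an adjusted p below 0.05 needs most of the 18 tests to reach it. The adjusted test could therefore hardly pass, and nothing is concluded from its failure. The LPS groups differed by 1.72 points (exact permutation p = 0.6). The short transcript amounted to 0.272 to 0.288 of the long one in Control, 0.469 to 0.814 in LPS and 0.443 to 0.802 in LPS+XJDHT.

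A limma fit of the log2 ratio of each gene's most abundant transcript to its other transcripts, chosen after the shares had been seen, gave -1.06 ± 0.25 for Dsp in LPS (adjusted p = 0.0328 over 5688 genes) and -0.96 ± 0.25 in LPS+XJDHT (adjusted p = 0.0487). In these comparisons 5.33% and 5.54% of genes passed. The Dsp calls were lost in 10 of 16 and 13 of 16 other settings, with adjusted p up to 0.0911 and 0.129, while the ratio stayed between -1.19 and -0.93 in LPS and between -1.07 and -0.80 in LPS+XJDHT. Leaving out a single Control library, whichever it was, or LPS 1, 2 or 4 ended the first call, and leaving out a single Control or LPS+XJDHT library or LPS 1 or 4 ended the second. Between the LPS groups the ratio differed by 0.11 (adjusted p = 0.986), where 0.0176% of genes passed. The fragments were assigned to transcripts by the authors, and no read spanning these junctions was counted here.

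**Figure D3:**
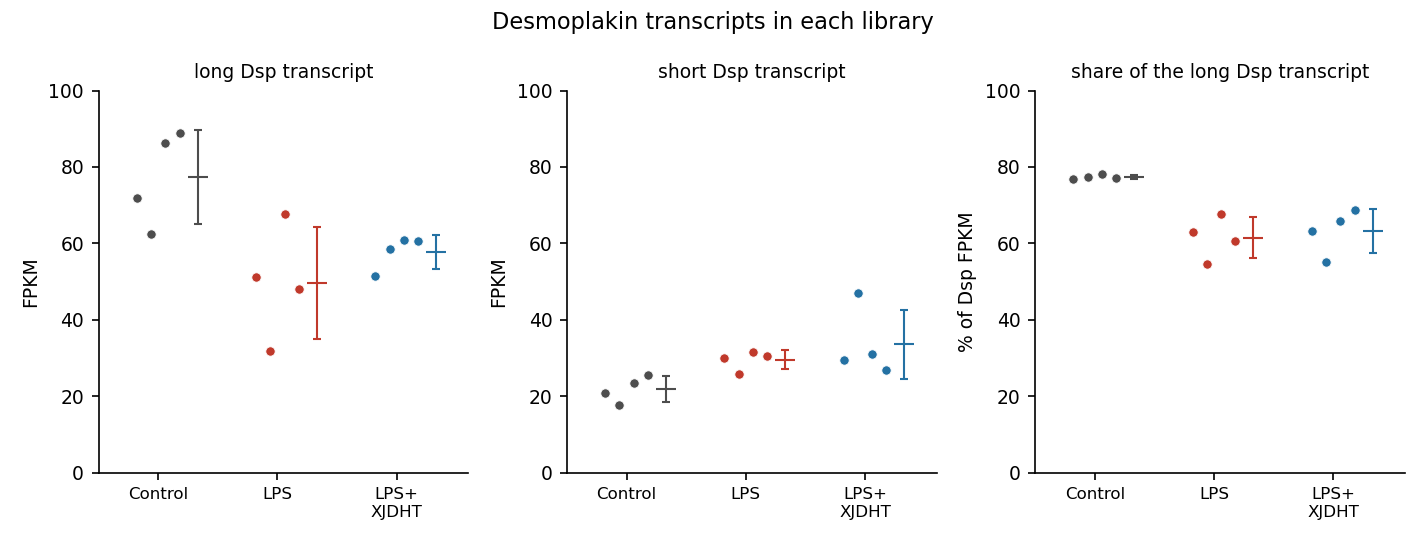
FPKM of the long and the short Dsp transcript and the share of the long one in the summed FPKM of Dsp, in percent, for each library; bars are the mean and SD of 4 libraries. The Control shares lie at 76.8% to 78.3% and those of the 8 hearts that received LPS at 54.7% to 68.7%.

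Of the 16 member transcripts tested in LPS against Control, the main transcripts of Cdh2 and Pkp2 rose and the long Dsp transcript fell. Over all transcripts 17.3% rose and 8.26% fell there. In LPS+XJDHT against Control 5 rose and 0 fell, where 18.6% of all transcripts rose and 7.35% fell. The 5 were the main transcript of Cdh2, both of Pkp2, the minor one of Dsg2 and the short one of Dsp. The main Cdh2 and Pkp2 transcripts hold all or nearly all of the FPKM of their genes. Their calls therefore repeat the gene calls. Between the LPS groups 0 of 16 passed, where 0.0965% of all transcripts did. The minor Dsg2 transcript was at 0.406, 0.408, 0.315 and 1.19 FPKM in Control, 2.01, 1.18, 1.63 and 1.06 FPKM in LPS, and 1.84, 3.13, 2.26 and 1.39 FPKM in LPS+XJDHT. All LPS+XJDHT libraries lay above Control (log2 fold change 1.00 ± 0.22, adjusted p = 0.00778). In LPS its fold change was 0.66, which passed in 7 alternatives, with adjusted p from 0.0212 without Control 4 to 0.0499 with protein-coding transcripts only. It did not follow the split of the gene, which came from the main Dsg2 transcript at 29.0, 19.4, 2.71 and 4.94 FPKM in LPS+XJDHT. The second Pkp2 transcript, with a retained intron, was between 0.136 and 0.794 FPKM in Control and between 0.953 and 1.30 FPKM in LPS+XJDHT (log2 fold change 0.54 ± 0.17, adjusted p = 0.0357). Its call was lost without Control 1, 2 or 3 or LPS+XJDHT 1, 3 or 4, with adjusted p between 0.0616 and 0.0933, with median-ratio scaling (0.0782) and with a pseudocount of 0.1 (0.0545).

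The 5 desmosome genes summed to 191 ± 24.4 FPKM in Control, 219 ± 15.9 FPKM in LPS and 221 ± 28.6 FPKM in LPS+XJDHT. Dsp made up 47.2% to 55.1% of that sum in Control, 28.6% to 43.2% in LPS and 34.9% to 48.1% in LPS+XJDHT. Pkp2 made up 14.3% to 18.1% in Control, 23.05% to 37.1% in LPS and 22.3% to 26.4% in LPS+XJDHT. The Pkp2 shares of all hearts that received LPS lay above Control, and the Dsp shares lay below it in every LPS heart and in all but 1 LPS+XJDHT heart. Jup kept to 20.5% to 24.7% in every library. The level of Pkp2 relative to Dsp was 0.269 to 0.376 in Control, 0.534 to 1.30 in LPS and 0.463 to 0.756 in LPS+XJDHT. These proportions restate the levels above and carry no test of their own.

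**Figure D4:**
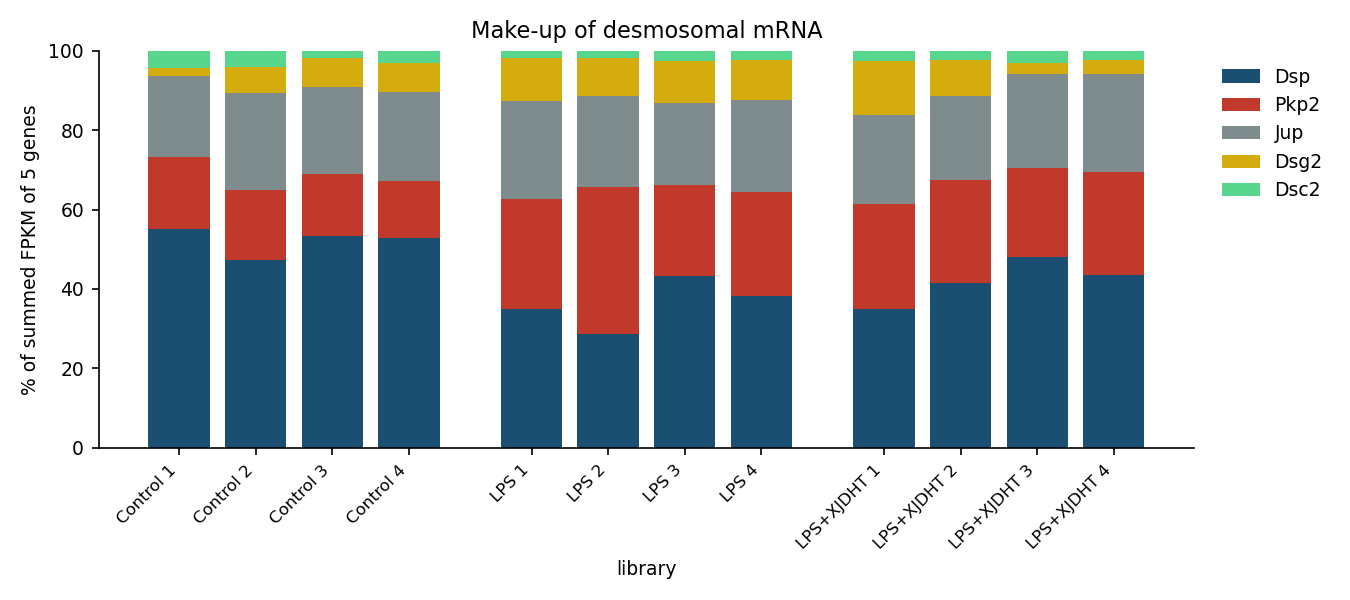
Percent of the summed FPKM of the 5 desmosome genes held by each gene, 1 bar per library. Pkp2 takes 14.3% to 18.1% in Control and 22.3% to 37.1% in the 8 libraries that received LPS.

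The ratio of Cdh2 to Jup, the cadherin and a plaque catenin that binds it, had an SD of 0.0396 in Control, 0.138 in LPS and 0.0341 in LPS+XJDHT. It was 1.05, 1.10, 1.14 and 1.14 in Control, 1.49, 1.53, 1.78 and 1.71 in LPS, and 1.85, 1.81, 1.80 and 1.87 in LPS+XJDHT. The 3 groups did not overlap, but LPS and LPS+XJDHT lay close, with 1.78 in LPS 3 and 1.80 in LPS+XJDHT 3. The ratio was looked at after the levels had been seen and was not tested. How many other pairs of genes part the groups in this way was not counted. The ratio of Pkp2 to Jup, also looked at, overlapped between the LPS groups, at 1.11 to 1.61 in LPS and 0.937 to 1.24 in LPS+XJDHT. The ratios of Pkp2 to Dsp and of the short to the long Dsp transcript, given above, overlapped there too. Cdh2 and Jup themselves did not pass between the LPS groups.

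The gap junction gene Gja1 (chr10:56377330-56402513, plus strand) encodes connexin43, the main channel protein of ventricular muscle. It was at 73.4, 0.0650, 0.109 and 49.0 FPKM in Control, 0.0173, 3.68, 72.4 and 68.7 FPKM in LPS, and 0.481, 0.436, 72.4 and 5.63 FPKM in LPS+XJDHT. Each group held hearts near 0 and 1 or more at 49.0 FPKM or above, and 7 of 12 libraries lay under 6 FPKM whatever the treatment. Behind these values stood 4 to 17238 recovered fragments. Its residual SD of 3.04 on the log2 scale ranked 3 among 11509 genes. A pattern of at least 20 FPKM in one library and at most 0.5 FPKM in another of the same group was found in 33 tested genes (0.287%), and in all 3 groups in 2 of them, of which Gja1 was 1.

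The fold change of Gja1 in LPS was 0.62 with a 95% interval from -3.54 to 4.77. In LPS+XJDHT it was -0.52 against Control, and 0.14 without LPS+XJDHT 2. In LPS+XJDHT against LPS it was -1.14, with an interval from -5.29 to 3.02. The files list 1 of the 8 annotated Gja1 transcripts. Transcripts without an Ensembl identifier, which were not assigned to genes, held 6.45% to 8.01% of the FPKM of a library. Whether Gja1 fragments lie among them was not tested.

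Tjp1 (chr7:65296165-65527781, minus strand) encodes ZO-1, the scaffold that binds the tail of connexin43 and borders gap junction plaques. It was at 11.98, 7.66, 12.1 and 8.90 FPKM in Control, 10.1, 6.56, 6.12 and 5.73 FPKM in LPS, and 8.23, 9.20, 8.69 and 9.75 FPKM in LPS+XJDHT. LPS 2, 3 and 4 lay below every Control heart, and LPS 1 did not. The fold change in LPS was -0.46 (95% interval -0.85 to -0.07) with an adjusted p of 0.0597. It passed without Control 2 (-0.58, adjusted p = 0.0292), without LPS 1 (-0.62, adjusted p = 0.0101), with median-ratio scaling (-0.64, adjusted p = 0.0126), with quality weights (-0.54, adjusted p = 0.0300) and with a filter of 5 FPKM (adjusted p = 0.0494). LPS+XJDHT differed from LPS by 0.32, with an interval from -0.07 to 0.71 (adjusted p = 0.994).

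Tjp1 also has a pair of listed transcripts, and its shares were not tested against those of Dsp. One holds an exon 20 of 240 bases (80 codons) at chr7:65314093-65314332 that the other skips, which is known as the alpha domain of ZO-1. The transcripts also differ elsewhere, since the form with that exon has 5235 coding bases and the form without it 5055. The junctions are shown with capitals for bases of that exon, as 30 bases on either side in transcript direction.
Tjp1 with the exon, exons 19 and 20: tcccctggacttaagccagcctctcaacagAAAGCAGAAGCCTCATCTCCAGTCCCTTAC
Tjp1 without the exon, exons 19 and 20: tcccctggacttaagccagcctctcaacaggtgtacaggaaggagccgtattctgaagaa
The skipping form held 86.3% ± 3.49 of Tjp1 in Control, 83.4% ± 2.75 in LPS and 86.0% ± 1.84 in LPS+XJDHT. These shares overlapped between the groups (exact permutation p = 0.286, 0.171 and 0.914 for LPS against Control, LPS+XJDHT against LPS and LPS+XJDHT against Control). Their adjusted p over the 18 share tests was 0.617 or more.

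A companion list of 40 other disc genes, chosen with earlier results of these data known, places the members among their partners. Of these, 34 were listed for all libraries and 29 were tested. In LPS against Control 10 rose and 3 fell, beside 26.6% and 12% of all genes. Their median was 0.28 on the log2 scale, beside 0.16 over all genes. In LPS+XJDHT against Control 11 rose and 3 fell, beside 28.5% and 10.7%, and between the LPS groups 0 passed. With median-ratio scaling 6 rose in each comparison with Control. That scaling lowered the median of all genes by 0.15 in LPS and by 0.19 in LPS+XJDHT against Control, and among all called genes the share that rose went from 68.9% to 50.4% and from 72.7% to 49.0%.

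Among the gap junction companions, 3 connexins were tested. Gja4, connexin37 of endothelium, was 5.12 ± 0.664 FPKM in Control and 7.56 ± 1.04 FPKM in LPS, higher in all LPS libraries (log2 fold change 0.48, adjusted p = 0.00918, and 0.31 with an adjusted p of 0.0869 with median-ratio scaling). Gja5, connexin40 of atrial muscle, conduction fibres and arterial endothelium, fell from 2.78 ± 0.294 to 1.11 ± 0.428 FPKM, without overlap (-0.86, adjusted p = 0.00301). Gjc1, connexin45, did not pass (0.17, 95% interval -0.20 to 0.54). In LPS+XJDHT the same direction was called for Gja4 (9.29 ± 0.910 FPKM) and Gja5 (1.31 ± 0.461 FPKM).

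Of 4 tested desmosome and filament companions, 2 rose in LPS, where 26.6% of all genes rose. Des, the desmin to which desmoplakin attaches, went from 375 ± 40.8 to 612 ± 88.3 FPKM (log2 fold change 0.70, adjusted p = 0.000531). Perp, a tetraspan protein of desmosomes, went from 55.3 ± 3.72 to 123 ± 12.9 FPKM (1.13, adjusted p = 0.000138). Both were higher than Control in all 8 hearts that received LPS. Krt18 and Ppl did not pass, with values of 0.32 and -0.11.

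In the adherens junction and actin list 5 of 13 tested genes rose in LPS and 0 fell, where 26.6% of all genes rose and 12% fell. Tln1, the integrin-binding talin-1, was 1.70-fold higher (log2 fold change 0.73, adjusted p = 0.00134). Actn1, the non-muscle alpha-actinin, went from 7.68 ± 1.74 to 22.1 ± 12.5 FPKM (1.30, adjusted p = 0.00481). Ctnna1, alpha-E-catenin, went from 108 ± 10.2 to 146 ± 9.54 FPKM (0.43, adjusted p = 0.00515, and 0.23 with an adjusted p of 0.0812 with median-ratio scaling). Ctnnb1, beta-catenin, did not pass (-0.12, 95% interval -0.48 to 0.24). Zyx, zyxin, rose by 0.49 (adjusted p = 0.0287), a call lost without Control 3, Control 4, LPS 1 or LPS 2 (adjusted p between 0.0679 and 0.0766) and with median-ratio scaling (0.30, adjusted p = 0.175). Xirp1, an actin-binding repeat protein of the disc, had 1.09 (adjusted p = 0.0439), which was lost without Control 2 or 3, LPS 1 or 2, or any 1 of the LPS+XJDHT libraries, and in 6 other settings (adjusted p up to 0.114). Its relative Xirp2 was at -0.40, with an interval from -1.84 to 1.05.

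The channel and scaffold companions moved both ways. Tmem43, a nuclear envelope protein linked to arrhythmogenic cardiomyopathy, was 9.28 ± 0.133 FPKM in Control, 17.0 ± 1.48 FPKM in LPS and 19.1 ± 0.740 FPKM in LPS+XJDHT (log2 fold change in LPS 0.80, adjusted p = 2.63e-05). Tmem65, a disc membrane protein that is known to bind connexin43, was 44.7 ± 3.59, 21.95 ± 3.02 and 20.3 ± 2.90 FPKM (-1.0, adjusted p = 9.10e-05). Of the 2 Popeye proteins that bind cyclic AMP, Bves fell from 13.0 ± 1.76 to 4.31 ± 0.716 FPKM (-1.40, adjusted p = 0.00110) while Popdc2 rose from 109 ± 16.1 to 194 ± 58.9 FPKM (0.79, adjusted p = 0.00696). Ank3, ankyrin-G, was at 0.31, with an interval from -0.59 to 1.203.

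**Figure D5:**
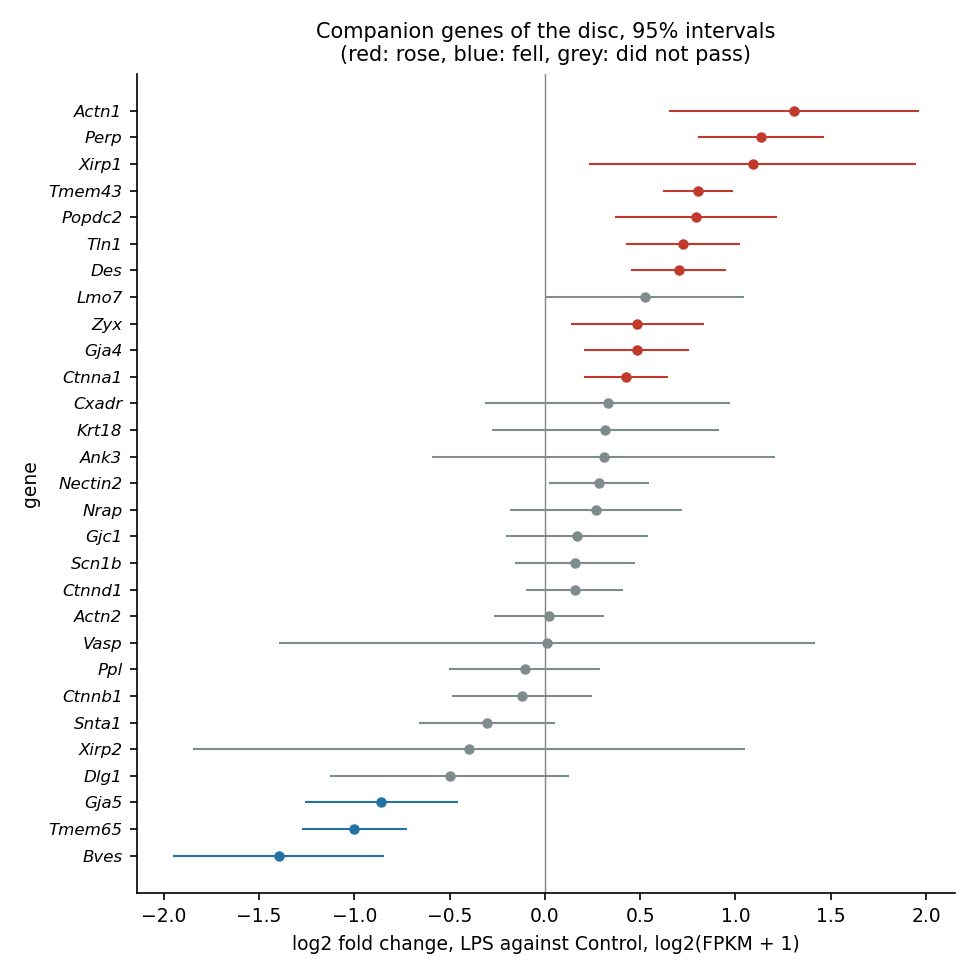
Log2 fold change in LPS against Control on the log2(FPKM + 1) scale with its 95% interval for the 29 tested companion genes of the disc; red rose, blue fell and grey did not pass. Actn1 and Perp lead the 10 genes that rose, and Bves, Tmem65 and Gja5 are the 3 that fell.

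Several of these genes are also expressed by other cells of a heart sample, so the summed levels of other cell type markers are given beside them. Over all tested genes 26.6% rose and 12% fell in LPS against Control. In LPS+XJDHT against Control 28.5% rose and 10.7% fell. The 8 endothelial markers summed to 177 to 216 FPKM in Control, 203 to 295 FPKM in LPS and 224 to 271 FPKM in LPS+XJDHT, with 1 of 8 risen in LPS and 3 in LPS+XJDHT against Control. The 8 fibroblast markers summed to 833 to 1014, 995 to 1159 and 863 to 1260 FPKM, and in both comparisons with Control 3 rose and 2 fell. The 8 leukocyte markers summed to 123 to 200, 152 to 301 and 150 to 261 FPKM. Of these, 5 rose in LPS, with a median log2 fold change of 1.89 over the 8, and in LPS+XJDHT against Control 5 rose and 1 fell. Mesothelial markers (5 listed of 8) summed to 1.47 to 11.3 FPKM, and 0 of 3 tested passed. Intestinal epithelial markers (6 listed of 10), whose cells hold desmosomes too, summed to 3.21 to 10.4 FPKM in Control, 9.18 to 13.2 FPKM in LPS and 2.82 to 5.67 FPKM in LPS+XJDHT, with Fabp2 under 0.05 FPKM in Control and Tff3 in LPS+XJDHT. Of 3 tested intestinal markers, 2 rose in LPS against Control and 2 fell in LPS+XJDHT against LPS, where 13 genes were called in all. The part of these cells in the disc results was not tested.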

How the data were processed

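The deposited FPKM values, 1 per transcript and library, were made by the authors from fragments scaled by transcript length and library size, as read from the values, since the file headers name no unit. After multiplication by transcript length, 99.0% to 99.4% of the values tested lay within 0.1 of a whole multiple of a library's constant. The submitters' processing notes name mm10 and limma, with no role for either, and an aligner is not given in the sources used here. Transcripts listed number 36293 for Control and LPS and 35802 for LPS+XJDHT, with 33137 in both. The list thus changes with the LPS+XJDHT group. Any effect of it on the values of shared transcripts was not tested. In comparisons with LPS+XJDHT it cannot be told apart from the treatment. Of the 33137 in both, 24723 matched the GENCODE M21 annotation of GRCm38 and were added up to 12866 genes.

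The 11509 genes that reached 1 FPKM in 4 or more libraries were fitted on log2(FPKM + 1) with limma 3.58.1 in R 4.3.3, with an intensity trend, 1 mean per group over 12 libraries and two-sided tests, and transcripts (18644) likewise. Transcript shares were compared with exact permutation tests (SciPy 1.17.1). Python 3.11.15, pandas 2.3.3, NumPy 2.4.6 and matplotlib 3.10.9 were used otherwise. The fit was tested on simulated data. Groups come from the labels. Mice carry separate numbers, but nothing says how they were housed or processed. The p-values therefore set group differences against the variation between these samples only. All members are described. 2 companion genes of the original lists are not reported here. Companions were named by smallest p, up to 4 per list, and by role. The members and lists were chosen with earlier results of these data known. Alternatives were other pseudocounts (0.1, 0.5), filters (none, 5 FPKM), scalings, weights, limma-voom on recovered fragments, transcript sets, and leaving out each library.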

Additional observations from a re-analysis of the deposited data

Results flagged for a closer look

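Within groups of 4 libraries, the highest or lowest value stood apart from the other 3 by more than Dixon's critical value at 95% in 8 of 141 groups examined. Chance alone flags about 1 group in 20. Among the members, Gja1 in LPS+XJDHT had its highest library at 72.4 FPKM, Jup in LPS its highest at 57.9 FPKM, and Dsc2 in LPS+XJDHT its lowest at 4.90 FPKM. The share of the main transcript in Jup had its lowest LPS library at 94.4%. Among the companions, Ctnnb1 had its lowest LPS library at 52.9 FPKM, and Popdc2 its highest LPS library at 282 FPKM. Dlg1, the scaffold SAP97, had its lowest Control library at 4.01 FPKM and its lowest LPS library at 2.10 FPKM.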

How the results depend on the processing

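No paired analysis was possible because the mice carry different numbers in each group, and the replicate numbers used here only follow the order of the samples. The rises of Cdh2 and Pkp2 against Control passed in all 23 alternatives of LPS and all 22 of LPS+XJDHT, with log2 fold changes from 0.58 to 1.04 for Cdh2 and from 0.57 to 1.02 for Pkp2. The causes of changed calls were not tested. The number of members that fell in LPS was 1 with a 5 FPKM filter or quality weights and 2 with median-ratio scaling, and 0 to 1 with each library left out, while 2 to 3 rose in either comparison with Control. Member transcripts that fell in LPS numbered 0 in a fit of 2 groups, 0 with every transcript listed for Control and LPS, 2 with median-ratio scaling and 0 to 2 with libraries left out, while 2 to 4 rose. In LPS+XJDHT against Control 3 transcripts rose with a 5 FPKM filter or median-ratio scaling and 3 to 6 with libraries left out, and 1 fell in a fit of 2 groups or with median-ratio scaling. Companions that rose numbered 6 with that scaling in both comparisons, and 8 to 10 and 9 to 12 with libraries left out, against 3 to 4 and 3 that fell.

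Over all features, LPS+XJDHT against LPS gave 43 genes without a filter, 1 at 5 FPKM and 13 to 19 with libraries left out, and 11 transcripts with a pseudocount of 0.1, 41 without a filter, 1 at 5 FPKM, 2 by limma-voom and 17 to 26 with libraries left out. A 5 FPKM filter gave 3114 transcripts in LPS and 3106 in LPS+XJDHT against Control. The log2 ratio of the long to the other Dsp transcripts lost its call in LPS in a fit of 2 groups (-1.06, adjusted p = 0.0532) and with pseudocounts of 0.1 (-1.09) and 0.5 (-1.08), and ranged from -1.19 to -0.93 with libraries left out. In LPS+XJDHT it lost it likewise (-0.96, -0.98 and -0.97), with a range from -1.07 to -0.80, and between the LPS groups it ranged from -0.029 to 0.26.

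The directions of these values turned. Ctnna3 in LPS was 0.070 with quality weights and -0.15 to 0.067 with libraries left out. Between the LPS groups, Jup was -0.038 with median-ratio scaling and -0.022 to 0.079 with libraries left out, Vcl was -0.038 with that scaling, -0.0054 with weights and -0.13 to 0.15, and the short Dsp transcript was -0.021 to 0.24. Against Control, LPS+XJDHT gave Jup -0.0017 with median-ratio scaling, Gja1 0.014 with a pseudocount of 0.1, 0.43 by limma-voom and -1.75 to 0.54 with libraries left out, and Dsg2 -0.062 to 0.77. In LPS, Gja1 ranged from -0.36 to 1.82, Ctnnb1 from -0.20 to 0.053, Ank3 from -0.14 to 0.53 and Xirp2 from -0.91 to 0.17. With libraries left out, shares of the main transcript in a gene that changed sign were, in points: Dsc2 -2.99 to 17.4, Dsg2 -5.62 to 0.525, Jup -0.445 to 1.22 and Pkp2 -0.154 to 0.549 in LPS, Jup -0.882 to 0.780 and Tjp1 -1.65 to 1.06 in LPS+XJDHT against Control, and Dsp -0.548 to 4.38 and Jup -1.08 to 0.178 between the LPS groups. Counting error is largest where Gja1 and Ctnna3 have as few as 4 and 109 recovered fragments in a library.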
